A study of Homo sapiens and Mus musculus with 12 samples.

Results

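The clustered protocadherins are cell adhesion proteins encoded by 3 gene clusters in a row, called alpha, beta and gamma. Human members were the genes whose symbols in the authors' deposited table follow the PCDHA, PCDHB or PCDHG naming, and mouse members were the genes whose deposited description starts with protocadherin alpha, beta or gamma; pseudogenes were left out. This gave 53 human members of 60675 gene identifiers (15 alpha, 16 beta and 22 gamma) and 57 mouse members of 47729 (13 alpha, 22 beta and 22 gamma). The human members lie on the plus strand of chromosome 5 (GRCh38). PCDHA14 fits the naming but is a pseudogene in GENCODE release 29 and was left out.

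Each clustered protocadherin has its own promoter and its own large first exon, which encodes the extracellular, transmembrane and proximal cytoplasmic parts. Alpha transcripts are spliced to exons that all alpha genes share, gamma transcripts to exons that all gamma genes share, and beta genes are single exons with no shared part. In mature neurons most isoforms are switched on in a few cells each, a choice that depends on DNA methylation, CTCF and cohesin, whereas the C-type isoforms at the end of the alpha and gamma clusters are expressed more uniformly. The proteins bind like with like across cell contacts, and in mice they are known for dendrite self-avoidance and neuron survival.

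The human organoids were derived from the established H9 line of embryonic stem cells, carried either a CRISPR/Cas9 knockout of NOTCH2NL (KO) or the control genotype labelled WT, and were harvested at week 4, on day 28, in pools of 5 to 10. The NOTCH2NL genes, whose functional copies are specific to humans, arose by partial duplication of the Notch receptor gene NOTCH2. The mouse organoids came from stable derivatives of the established mouse stem cell line 46C that overexpressed NOTCH2NL-Sh_T197I cDNA (N2NL) or held the empty vector (EV), and were harvested at day 6 in pools of 16. Each of the 4 groups had 3 libraries. The sample names carry 1 line code per group (H9_KO_E5del42, H9_WT_E2del19, 46C_N2NL and 46C_EV), so the genotype or vector cannot be told apart from the line it was measured in. The sources used here do not explain the codes E5del42 and E2del19, do not name the promoter that drives the vector, and do not say whether pools were grown as separate cultures, so the p-values may measure technical spread.

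Libraries held 15381409 to 16382938 counts in human and 16781742 to 20960391 in mouse. NOTCH2NL had 0 counts in all 3 KO libraries, against 4, 5 and 3 in WT 1 to 3. In mouse, the authors' deposited table gives NOTCH2NL normalised values of 801, 709 and 740 in N2NL and 0 in all 3 EV libraries. On the second principal component of the human libraries, WT 1 stood apart from the other WT libraries (35.0, against −28.0 and −11.2). KO 3 stood apart from the other KO libraries there (−23.0, against 11.5 and 15.8). Results that turn on WT 1 are given with and without it. Among edgeR fits with 1 library left out, the one without WT 1 had the most human genes with adjusted p under 0.05. PCDHB2, PCDHB16 and PCDHGC4 passed that threshold in no other of these fits. The first mouse component set the replicate 1 library of both groups apart from the other 4. The labelled forebrain tissue was checked by genes of the developing cortex, given in CPM (counts scaled to a common library size). LHX2, a transcription factor of the cortical primordium, averaged 232 ± 101 CPM in KO and 218 ± 102 CPM in WT, and 104 ± 10.7 CPM in N2NL and 74.4 ± 4.88 CPM in EV (SD, n = 3 each). EMX2, a second such factor, averaged 125 ± 50.0 CPM in KO and 158 ± 58.8 CPM in WT, and 153 ± 16.9 CPM in N2NL and 123 ± 1.96 CPM in EV. In human organoids 12 neuron genes summed to 2968 to 4617 CPM in KO and 3443 to 4577 CPM in WT.

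The promoters of the human members carry short shared elements with the core letters CGCT, a known feature of these clusters. RefSeq windows from 250 bases before to 50 bases after the start (GRCh38.p14) were found for 47 of the 53 members. The windows of the member that rose in KO organoids, PCDHB5 (chr5:141134956-141135255), and of the member that fell, PCDHGC3 (chr5:141475716-141476015), are shown whole. Both are plus strand and read 5′ to 3′, and capitals mark GGTGGCGCT in PCDHB5 and GCCGCTGT in PCDHGC3.
PCDHB5: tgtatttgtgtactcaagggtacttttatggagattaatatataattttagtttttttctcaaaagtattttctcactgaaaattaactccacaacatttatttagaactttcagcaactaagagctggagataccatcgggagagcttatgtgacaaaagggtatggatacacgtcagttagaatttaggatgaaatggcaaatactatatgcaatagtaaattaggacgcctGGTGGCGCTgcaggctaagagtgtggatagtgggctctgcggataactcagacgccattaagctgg
PCDHGC3: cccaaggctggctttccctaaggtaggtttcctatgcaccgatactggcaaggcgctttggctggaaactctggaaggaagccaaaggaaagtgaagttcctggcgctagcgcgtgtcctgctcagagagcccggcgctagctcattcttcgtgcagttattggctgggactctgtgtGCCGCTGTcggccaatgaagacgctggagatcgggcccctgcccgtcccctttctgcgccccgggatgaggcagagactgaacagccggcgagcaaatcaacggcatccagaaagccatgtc

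The element differed by cluster. Shorter stretches of 50 bases around it are shown for the most highly expressed members and for those with the next largest differences, again from the plus strand, with GGTGGCGCT in capitals for beta members, GCCGCTGT for gamma members and TGTCGCT for alpha members.
PCDHB2 (chr5:141094535-141094584): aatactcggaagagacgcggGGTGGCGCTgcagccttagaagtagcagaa
PCDHB16 (chr5:141182301-141182350): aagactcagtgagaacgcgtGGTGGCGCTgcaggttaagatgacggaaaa
PCDHB14 (chr5:141223254-141223303): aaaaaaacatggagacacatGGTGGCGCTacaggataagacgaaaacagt
PCDHGB6 (chr5:141407918-141407967): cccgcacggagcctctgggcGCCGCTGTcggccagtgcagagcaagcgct
PCDHGC4 (chr5:141484946-141484995): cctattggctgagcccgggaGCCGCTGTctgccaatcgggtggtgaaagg
PCDHA4 (chr5:140806972-140807021): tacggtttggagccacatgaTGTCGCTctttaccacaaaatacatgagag
PCDHA6 (chr5:140827890-140827939): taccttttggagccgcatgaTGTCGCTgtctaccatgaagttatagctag
PCDHA11 (chr5:140868876-140868925): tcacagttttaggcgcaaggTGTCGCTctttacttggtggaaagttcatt

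The letters GGTGGCGCT stood in 13 of 14 beta windows and in no alpha or gamma window, against 0.619% of the 27305 genes in the same table. GCCGCTGT stood in 11 of 20 gamma windows and in no alpha or beta window, against 1.98% of all genes. TGTCGCT stood in 10 of 13 alpha windows, 1 beta window and 3 gamma windows, against 2.15% of all genes. The 3 strings were chosen from the members' own promoters, both strands were searched, and the strings overlap in their CGCT core. PCDHB5, which rose, was 1 of the 13 beta members with GGTGGCGCT, and PCDHGC3, which fell, was 1 of the 11 gamma members with GCCGCTGT. The other members with either string did not pass the test or had too few counts for it. Whether the strings bear on the levels was not tested. The window of PCDHGB7 held none of the 3.

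Levels in the human organoids were uneven across each cluster. They are compared per kb of the exonic length that belongs to a gene alone, on the assumption that reads in the shared alpha or gamma exons were not counted for any member; how the authors' counting treated them is not stated in the labels. The highest was PCDHGB6 at 30.6 ± 1.38 CPM per kb in KO and 30.4 ± 2.50 CPM per kb in WT (SD, n = 3 each). PCDHB2 followed at 19.3 ± 1.79 CPM per kb in KO and 22.9 ± 3.76 CPM per kb in WT. PCDHGC4, the isoform required for neuron survival in mice, stood at 8.90 ± 0.961 CPM per kb in KO and 12.2 ± 2.59 CPM per kb in WT.

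PCDHGC3 came next by its mean over all libraries, at 3.63 ± 0.233 CPM per kb in KO and 8.81 ± 1.67 CPM per kb in WT. In KO its mean lay within the spread of PCDHB10 (4.03 ± 0.467 CPM per kb) and under that of PCDHB14 (4.12 ± 0.248 CPM per kb), and in WT above PCDHB10 (4.85 ± 0.804 CPM per kb) and PCDHB14 (4.57 ± 0.481 CPM per kb). PCDHB10 and PCDHB14 did not differ beyond their spread in either group. The highest alpha member was PCDHA6, at 2.71 ± 0.312 CPM per kb in KO and 2.79 ± 0.289 CPM per kb in WT. Per kb of the whole exonic length, shared exons included, PCDHB2 ranked above PCDHGB6.

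The order of members was alike in both genotypes, with a Spearman coefficient of 0.958 between mean KO and mean WT levels over 53 members, which share gene lengths and annotation. PCDHA1 and PCDHA2, the first members of the alpha cluster, had 0 counts in every library.

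**Figure D1:**
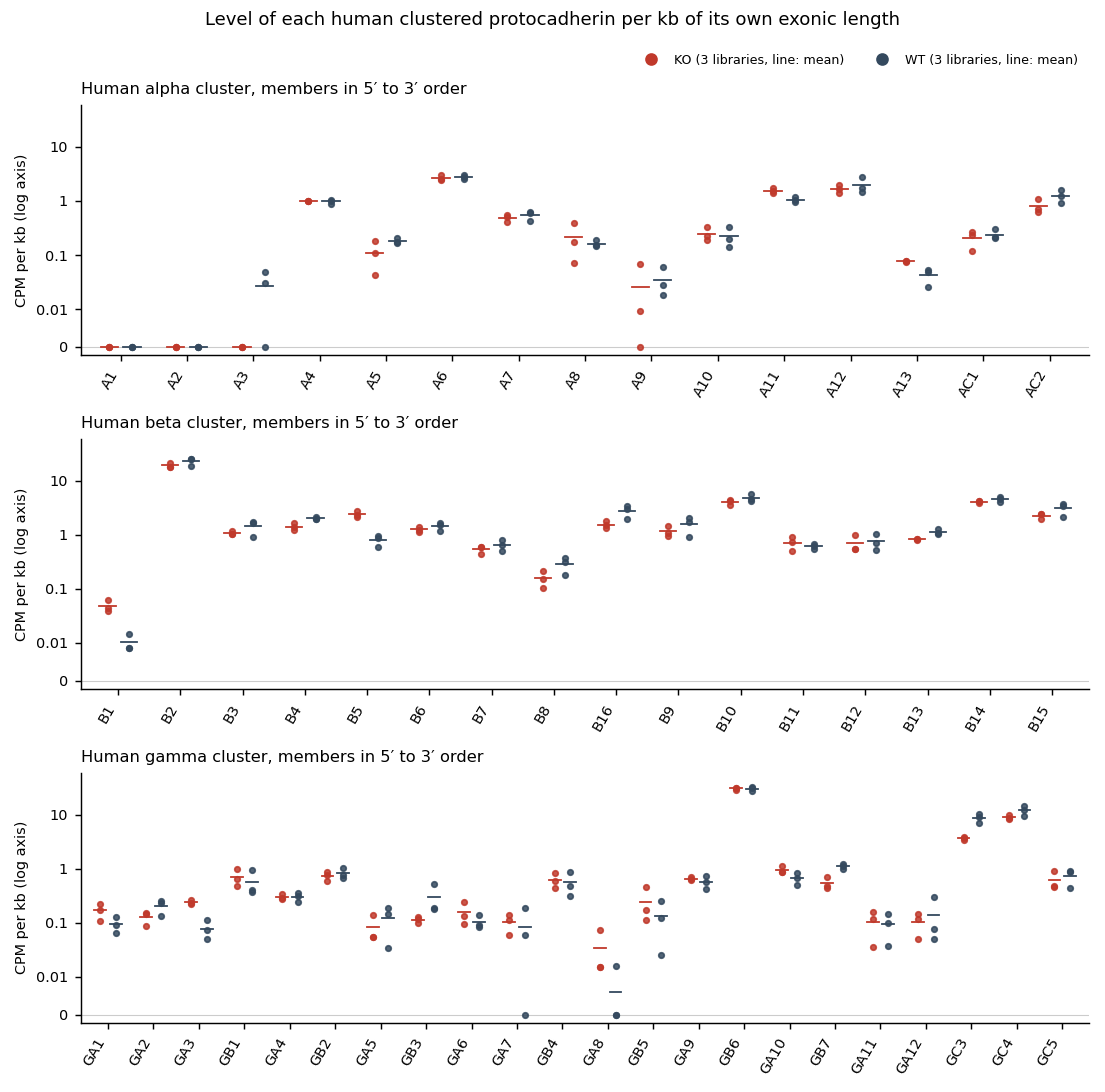
Level of each human member in CPM per kb of its own exonic length (log axis, with 0 drawn at the bottom line), with members in their order along the chromosome; points are libraries and lines are group means, KO left of WT. PCDHGB6 and PCDHB2 lie highest in both genotypes, and KO and WT points part for PCDHB5 and PCDHGC3.

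The knockout organoids and the control organoids differed in 2 of the 36 members that could be tested: PCDHB5 rose and PCDHGC3 fell in KO. That is 5.556% of the tested members, near the 5.50% of all 16956 tested genes that were called (391 higher, 2.31%, and 541 lower, 3.19%; edgeR quasi-likelihood test, adjusted p under 0.05), so the share called was not particular to these genes. The other 17 members had too few counts for the test. Whether bulk tissue holds fewer cells of a type or less RNA per cell cannot be told apart here.

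PCDHB5 (ENSG00000113209; chr5:141135218-141138625) is a single-exon isoform of the beta cluster. It had 142, 114 and 130 counts in KO 1 to 3, against 32, 48 and 49 in WT 1 to 3, or 9.23, 7.24 and 7.95 CPM in KO and 2.07, 2.92 and 3.25 CPM in WT. Every KO library lay above every WT library. The mean was 2.96-fold higher in KO, a log2 fold change of 1.56 ± 0.23 (approximate SE; adjusted p = 0.00538). It was called in all 14 fits run, with log2 fold changes of 1.40 to 1.70 when 1 library was left out.

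The neighbour of PCDHB5 did not rise with it. PCDHB4, just upstream, had 5.46, 4.64 and 6.24 CPM in KO, against 7.58, 7.56 and 8.23 CPM in WT, with every KO library below every WT library and a log2 fold change of −0.51 ± 0.19 (adjusted p = 0.142, not passing). The annotated antisense gene over the end of PCDHB5, AC244517.11, had 0 counts in all libraries but WT 3, which had 2.

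PCDHGC3 (ENSG00000240184; chr5:141475947-141512979) is a C-type isoform of the gamma cluster, known in mice to promote dendrite branching. It had 183, 197 and 180 counts in KO 1 to 3, against 349, 545 and 453 in WT 1 to 3, or 11.9, 12.5 and 11.01 CPM in KO and 22.6, 33.2 and 30.1 CPM in WT. Every KO library lay below every WT library, also with WT 1, the lowest of the WT libraries. The mean in KO was 0.413 times that in WT, a log2 fold change of −1.28 ± 0.16 (adjusted p = 0.00190). It was called in all 14 fits run, with log2 fold changes of −1.42 to −1.15 when 1 library was left out.

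The 5 C-type members all had log2 fold changes below 0, of which PCDHGC3 alone passed the test; without KO 3 PCDHAC1 turned to 0.08. PCDHGC4 (chr5:141484997-141512979) had 23.9, 22.8 and 27.9 CPM in KO, against 26.4, 40.8 and 34.8 CPM in WT, and the groups overlapped through KO 3 and WT 1. Its log2 fold change was −0.45 ± 0.16 (adjusted p = 0.127), and without WT 1 it was −0.61 and passed (adjusted p = 0.0175). PCDHAC2, which in mice is needed for the tiling of serotonergic axons, had 2.41, 3.69 and 2.14 CPM in KO, against 5.57, 3.23 and 4.18 CPM in WT, which overlapped (log2 fold change −0.66 ± 0.30, adjusted p = 0.225).

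PCDHGC5, which binds GABA type A receptors in rodents, and PCDHAC1 were low. PCDHGC5 had 1.30, 1.33 and 2.57 CPM in KO, against 2.53, 2.44 and 1.26 CPM in WT, with the highest value in KO 3 and the lowest in WT 3. PCDHAC1 had 1.11, 0.953 and 0.489 CPM in KO, against 0.842, 1.22 and 0.862 CPM in WT, with no order between the groups. Their log2 fold changes were −0.26 ± 0.39 and −0.21 ± 0.42 (adjusted p = 0.742 and 0.814). The median log2 fold change of the 5 was −0.45, beside −0.005 over all tested genes.

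Among the beta genes other than PCDHB5, 12 of the 13 tested had log2 fold changes below 0 in KO, with a median of −0.27; with PCDHB5 the median of the 14 was −0.26. Below 0 lay 25 of the 36 members tested and 50.7% of all tested genes. The 25 held under both other scalings in edgeR and by DESeq2. With 1 library left out the number ran from 21 (without WT 2) to 28 (without WT 1). PCDHB16 (chr5:141181399-141186399) had 8.13, 6.16 and 6.97 CPM in KO, against 8.94, 15.7 and 13.5 CPM in WT. No KO library reached the lowest WT library, WT 1, and the log2 fold change of −0.84 ± 0.22 did not pass the test (adjusted p = 0.0555). Without WT 1 it was −1.04 and passed (adjusted p = 0.00711), and it also passed by DESeq2 (adjusted p = 0.0151).

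PCDHB2, the most abundant beta member, had 74.7, 75.7 and 88.0 CPM in KO, against 76.7, 103 and 104 CPM in WT. Here WT 1 lay inside the KO range, and the log2 fold change of −0.25 ± 0.13 did not pass (adjusted p = 0.267), whereas without WT 1 it was −0.38 and passed (adjusted p = 0.0329). PCDHB10 and PCDHB14 had log2 fold changes of −0.27 ± 0.16 and −0.15 ± 0.13 and PCDHB11 of 0.22 ± 0.29, none of which passed. PCDHB13, named after its values were seen, had 4.16, 4.13 and 4.22 CPM in KO, against 6.61, 5.42 and 5.24 CPM in WT, also without overlap and without passing (−0.46 ± 0.20, adjusted p = 0.203).

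**Figure D2:**
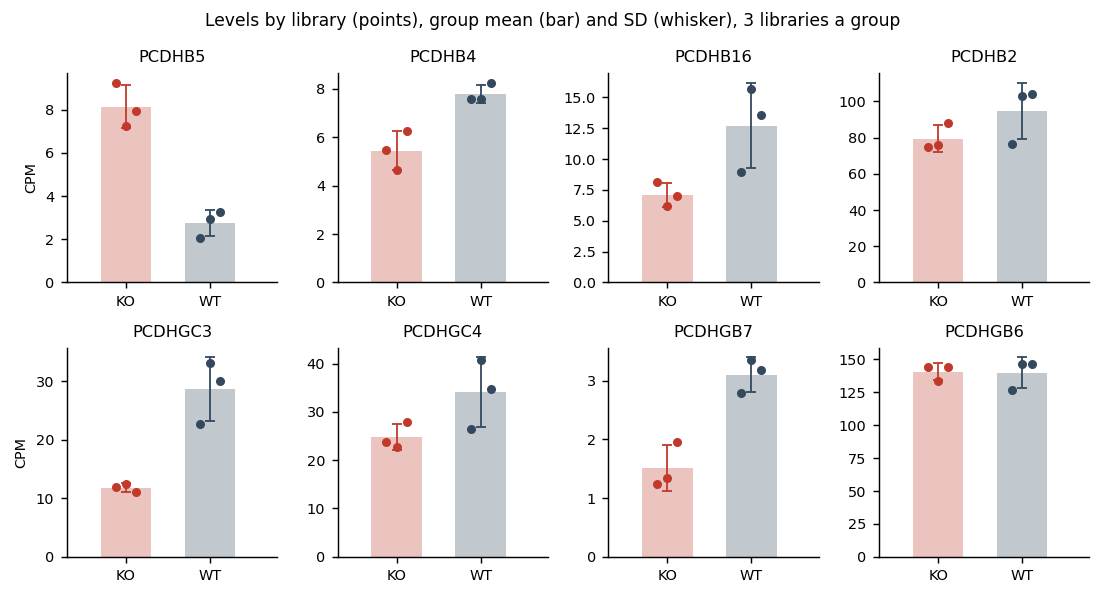
CPM in each library (points), group mean (bar) and SD (whisker) for 8 human members, KO left of WT, each panel on its own linear axis from 0. PCDHB5 is higher and PCDHGC3 lower in all 3 KO libraries, while PCDHGB6 is level; in PCDHB16, PCDHB2 and PCDHGC4 the lowest WT point is WT 1.

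The gamma A and B isoforms moved both ways. PCDHGB6, the most abundant member of all, had 144, 133 and 144 CPM in KO, against 127, 147 and 147 CPM in WT, which overlapped fully (log2 fold change 0.01 ± 0.09, adjusted p = 0.975). PCDHGB7 had 1.24, 1.33 and 1.96 CPM in KO, against 2.79, 3.35 and 3.18 CPM in WT. All 3 KO libraries were lower, but the log2 fold change of −1.04 ± 0.29 did not pass (adjusted p = 0.0645).

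PCDHGA10 had 3.84, 3.94 and 5.08 CPM in KO, against 2.20, 2.99 and 3.65 CPM in WT, without overlap but without passing the test (0.54 ± 0.26, adjusted p = 0.251). PCDHGA6 was under 1.5 CPM in every library and overlapped between the groups (0.57 ± 0.47, adjusted p = 0.513). Of the 13 gamma members tested, 7 lay below 0, with a median log2 fold change of −0.05.

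None of the 9 alpha members tested passed (edgeR; 1 had an unadjusted p under 0.05, and DESeq2 called 0), and 6 lay below 0 with a median of −0.16. PCDHA4 and PCDHA6, with the most alpha counts, had log2 fold changes of 0.01 ± 0.15 and −0.05 ± 0.17. PCDHA11 had 5.72, 4.70 and 5.08 CPM in KO, against 3.50, 3.90 and 3.18 CPM in WT. The KO libraries all lay above the WT libraries, without passing (0.55 ± 0.21, adjusted p = 0.159). PCDHA5, PCDHA10 and PCDHA12 had values of −0.71 ± 0.51, 0.15 ± 0.36 and −0.25 ± 0.27, with overlapping groups.

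In all, 8 of the 36 tested members had KO and WT libraries that did not overlap, 3 higher and 5 lower, or 22.22% beside 28.8% of all tested genes. DESeq2 called 3 members (PCDHB5, PCDHB16 and PCDHGC3), and 8 of the 53 had no adjusted p. The share of members called was not above the 7.12% of all genes it tested. The authors' deposited table gives the same 3, of 42 members that have an adjusted p there, a value under 0.05 (2.12e-06, 0.0147 and 1.21e-09).

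**Figure D3:**
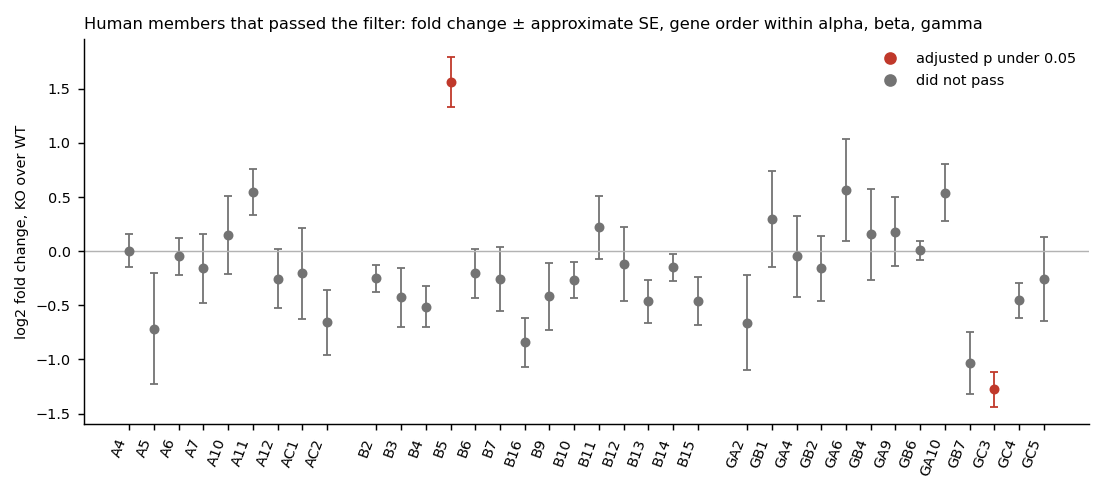
Log2 fold change, KO over WT, of the 36 human members tested, with approximate SE, in chromosome order within each cluster. PCDHB5 (1.56) and PCDHGC3 (−1.28), in colour, passed the test; 12 of the 14 beta members lie below 0.

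Summed over its members, each human cluster overlapped between the genotypes. The beta cluster summed to 163, 155 and 180 CPM in KO, against 170, 219 and 202 CPM in WT, a ratio of means of 0.843. The gamma cluster summed to 200, 188 and 206 CPM in KO, against 194, 243 and 232 CPM in WT, a ratio of 0.888. Both sums were lowest among WT libraries in WT 1, and without it no library overlapped and the ratios were 0.789 and 0.834. Without KO 3 the beta sums did not overlap either (ratio 0.807), while the gamma sums did (0.87). The alpha cluster summed to 37.7 ± 0.654 CPM in KO and 39.0 ± 4.07 CPM in WT (SD, n = 3 each), a ratio of 0.966, which turned to 1.03 without overlap when WT 2 was left out.

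The make-up of the gamma cluster differed more than its sum. PCDHGC3 made up 5.35% to 6.67% of the gamma counts in KO, against 11.7% to 13.7% in WT. PCDHGB6 made up 70.1% to 72.2% in KO, against 60.4% to 65.3% in WT, although its own level overlapped between the genotypes. The effective number of members, which is the inverse Simpson index and falls as fewer members hold the reads, was 1.85 to 1.95 in KO and 2.17 to 2.42 in WT. With counts divided by own length it was 2.32 to 2.46 in KO and 2.78 to 3.08 in WT. Shares within a cluster are bound to each other, so these values are not separate from the lower PCDHGC3 level. The exact permutation test of 3 against 3 libraries cannot go below 0.1, so these values are given without one.

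In the beta and alpha clusters the effective number overlapped between genotypes. PCDHB2 held 45.7% to 49.0% of the beta counts in KO and 45.1% to 51.5% in WT, and the effective number was 3.72 to 4.10 in KO and 3.41 to 4.19 in WT. In the alpha cluster it was 5.42 to 5.88 in KO and 5.53 to 5.97 in WT. By counts divided by own length, PCDHA11 made up 15.4% to 18.4% of the alpha cluster in KO and 10.7% to 11.6% in WT, without overlap, while the shares of PCDHA6 and PCDHA12 overlapped.

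Genes that act on or beside the clusters were read next. Of the CTCF and cohesin genes, which set the chromatin loops that choose a promoter, 2 of 11 rose in KO, beside 2.31% of all tested genes, and none fell. STAG1 and STAG2, alternative subunits of cohesin, stood at 63.9 ± 2.21 and 96.5 ± 7.50 CPM in KO and 44.9 ± 5.20 and 65.7 ± 5.84 CPM in WT (SD, n = 3 each; log2 fold changes 0.51 ± 0.10 and 0.56 ± 0.10, adjusted p = 0.0211 and 0.0120). With 1 library left out at a time, STAG1 passed in 1 of 6 fits and STAG2 in 4. CTCF itself had a log2 fold change of 0.22 ± 0.09 (adjusted p = 0.163). All 11 lay above 0, beside 49.3% of all tested genes, with a median of 0.22.

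Of 11 genes of DNA methylation and silencing, such as DNMT1, EHMT2 and TRIM28, none passed (edgeR). Of 17 genes for intracellular partners and effectors, 1 rose, beside 2.31% of all tested genes, and none fell. Of the 17, 13 lay below 0 and 4 above, with a median of −0.07. The gene that rose was PRKCA, the protein kinase C alpha gene, in a pathway that gamma protocadherins restrain in mice. It stood at 58.6 ± 6.34 CPM in KO and 40.5 ± 2.49 CPM in WT (log2 fold change 0.53 ± 0.11, edgeR adjusted p = 0.0197). It passed in 2 of the 6 fits with a library left out.

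Of 10 tested protocadherins that lie outside the clusters, 1 rose, beside 2.31% of all tested genes, and none fell. PCDH11X, an X-linked gene, had 11.4, 8.83 and 10.6 CPM in KO, against 4.02, 4.51 and 4.71 CPM in WT, with every KO library higher (1.22 ± 0.19, adjusted p = 0.00605), and it passed in all 14 fits. None of the 9 classical cadherins tested passed; N-cadherin, CDH2, had a log2 fold change of 0.08 ± 0.09. Of the genes beside the clusters, a list added after the data were seen, none of 5 tested passed, and they ran from −0.05 to 0.09.

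Cell type markers moved in part with the genotype, and their part in the protocadherin results was not tested. Of 12 neuron markers, TUBB3 and MAPT fell in KO (−0.52 ± 0.12 and −0.37 ± 0.09, edgeR adjusted p = 0.0316 and 0.0404) and none rose. Over all tested genes 3.19% fell. TUBB3 and MAPT each passed in 1 of the 6 fits with 1 library left out. Of the 12, 8 lay below 0 and 4 above, with a median of −0.18. ELAVL4 and RBFOX3, named after their values were seen, did not pass. ELAVL4 was higher in every KO library (0.51 ± 0.14, edgeR adjusted p = 0.0621) and RBFOX3 lower in every one (−0.61 ± 0.18, edgeR adjusted p = 0.0741). Of 10 progenitor markers none passed, with sums of 3647 to 4624 CPM in KO and 4359 to 4774 CPM in WT. VIM, which holds most of that sum, averaged 2389 ± 262 CPM in KO and 2938 ± 192 CPM in WT, whereas 7 of the 10 lay above 0, with a median of 0.25, and SLC1A3, MKI67 and PROM1, named after their values were seen, had log2 fold changes of 1.14 ± 0.26, 0.61 ± 0.16 and 0.45 ± 0.13 with every KO library above every WT library (adjusted p = 0.0660, 0.0607 and 0.0828). Of 10 neural crest and mesenchyme markers PDGFRB rose and LUM fell (1.13 ± 0.25 and −2.04 ± 0.40, edgeR adjusted p = 0.0402 and 0.0181). LUM was low, at a mean of 0.377 CPM in KO and 1.58 CPM in WT. With 1 library left out PDGFRB passed in 0 of 6 fits and LUM in 3. Of the 6 tested markers 5 lay below 0 and 1 above, with a median of −0.87. The list summed to 30.0 to 51.9 CPM in KO and 37.5 to 54.4 CPM in WT. SIX3, a homeobox gene that marks the front of the neural plate, rose (2.03 ± 0.18, adjusted p = 3.09e-04). Epithelial markers summed to 6.61 to 12.5 CPM in KO and 7.07 to 9.01 CPM in WT, and pluripotency markers to 3.43 to 8.75 CPM in KO and 5.25 to 14.4 CPM in WT, with TDGF1 at 0.

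In mouse organoids that expressed NOTCH2NL, none of the 45 members tested passed (edgeR; 1 had an unadjusted p under 0.05, and DESeq2 called none, leaving 56 of the 57 members without an adjusted p). In this comparison 0.012%, or 2, of 16682 tested genes were called. The median log2 fold change was 0.03, and 21 of 45 lay below 0, beside 51.7% of all tested genes. N2NL and EV libraries did not overlap for 3 of the 45, or 6.667%, beside 12.7% of all tested genes; 2 were higher and 1 lower, beside 7.39% and 5.31% of all genes. No mouse gene lengths were used here, so levels are not compared between mouse members.

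The gamma C3 gene (ENSMUSG00000102918) held the most counts and the smallest p. It had 1187, 1097 and 1142 counts in N2NL 1 to 3, against 810, 1073 and 1133 in EV 1 to 3, or 59.1, 65.2 and 67.6 CPM in N2NL and 44.0, 50.8 and 55.4 CPM in EV. Every N2NL library lay above every EV library in CPM, by 1.28-fold in the mean. The log2 fold change of 0.35 ± 0.09 did not pass (p = 0.00222, adjusted p = 0.366); it passed only with no filter on low counts (adjusted p = 0.0252), and the authors' deposited table gives an adjusted p of 0.0190.

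The gene for gamma C3 thus had a log2 fold change of −1.28 in human KO organoids and 0.35 in mouse N2NL organoids. These come from different species, ages and manipulations, and the difference between them was not tested. Of the other C-type genes, alpha C2 had 1.74, 1.60 and 0.769 CPM in N2NL, against 0.597, 1.18 and 0.880 CPM in EV, which overlapped (0.62 ± 0.36, adjusted p = 0.755). Gamma C5 had a log2 fold change of −0.06 ± 0.28. Alpha C1 had 0 counts in all 3 N2NL libraries, against 2, 1 and 3 in EV, too few to test.

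Of the mouse beta genes, 15 of 20 lay below 0, with a median of −0.13, but only 10 of 20 without EV 2 or without N2NL 1. Beta 22 held the most beta counts, at 18.2, 22.8 and 19.9 CPM in N2NL and 18.0, 20.9 and 22.5 CPM in EV, which overlapped (−0.02 ± 0.12). Beta 17 and beta 20 had values of −0.19 ± 0.17 and −0.15 ± 0.20. Beta 10 had 0.648, 0.951 and 0.651 CPM in N2NL, against 1.36, 1.42 and 0.831 CPM in EV, which overlapped in 1 library of each group (−0.68 ± 0.34, adjusted p = 0.696). Beta 2 was higher in every N2NL library, at 1.30, 1.60 and 1.54 CPM, against 1.03, 1.04 and 1.17 CPM in EV (0.44 ± 0.27, adjusted p = 0.771), and beta 14 and beta 6 had values of −0.45 ± 0.27 and 0.18 ± 0.29.

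Of the mouse gamma genes, 16 of 21 lay above 0, with a median of 0.06, but 10 of 21 without EV 1 and 9 of 21 without N2NL 3. Gamma B6 and gamma B5 had log2 fold changes of 0.31 ± 0.22 and 0.19 ± 0.17, gamma A7 of 0.04 ± 0.17 and gamma A12 of −0.25 ± 0.26. Identifiers ENSMUSG00000023036 and ENSMUSG00000103897 share the description gamma A8, and the second had −0.24 ± 0.29. In the alpha cluster only 4 of 13 members could be tested. Alpha 3 was lower in every N2NL library, at 0.448, 0.297 and 0.592 CPM, against 0.706, 0.900 and 0.636 CPM in EV (−0.74 ± 0.39, adjusted p = 0.717). Alpha 12 and ENSMUSG00000007440, 1 of a pair described as alpha 11, had values of 0.07 ± 0.55 and 0.08 ± 0.39.

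**Figure D4:**
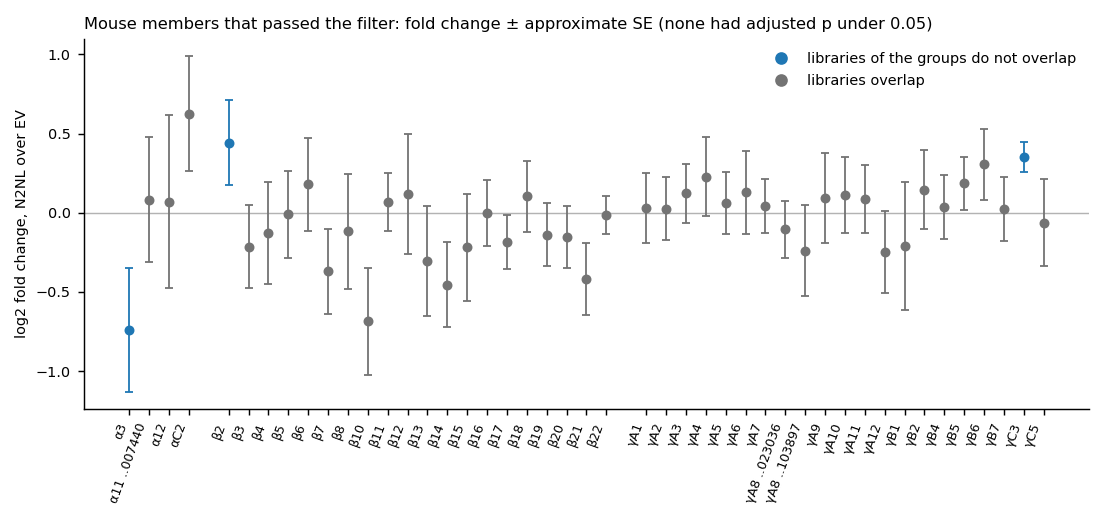
Log2 fold change, N2NL over EV, of the 45 mouse members tested, with approximate SE, by cluster and number; for pairs with the same description the end of the identifier is added. No member passed the test, and in 3 of them (alpha 3, beta 2 and gamma C3) the libraries of the groups did not overlap.

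Mouse cluster sums overlapped between the groups over all 6 libraries. The gamma cluster summed to 122, 139 and 145 CPM in N2NL, against 103, 119 and 132 CPM in EV, a ratio of 1.149. The beta cluster summed to 66.7 ± 8.14 CPM in N2NL and 70.6 ± 7.87 CPM in EV, and the alpha cluster to 4.66 ± 0.307 CPM in N2NL and 4.68 ± 0.631 CPM in EV (SD, n = 3 each). Without N2NL 1 or without EV 3 the gamma sums did not overlap (ratios 1.20 and 1.22), and without EV 1 the beta sums did not (0.888). Gamma C3 held 46.5% to 48.3% of the gamma counts in N2NL, against 42.1% to 42.8% in EV. The effective number of gamma members, which is not separate from that share, was 3.99 to 4.25 in N2NL and 4.90 to 5.01 in EV. For beta it was 7.29 to 8.32 in N2NL and 7.60 to 8.63 in EV, and for alpha 4.65 to 7.57 in N2NL and 6.34 to 8.07 in EV, with overlap in both.

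**Figure D5:**
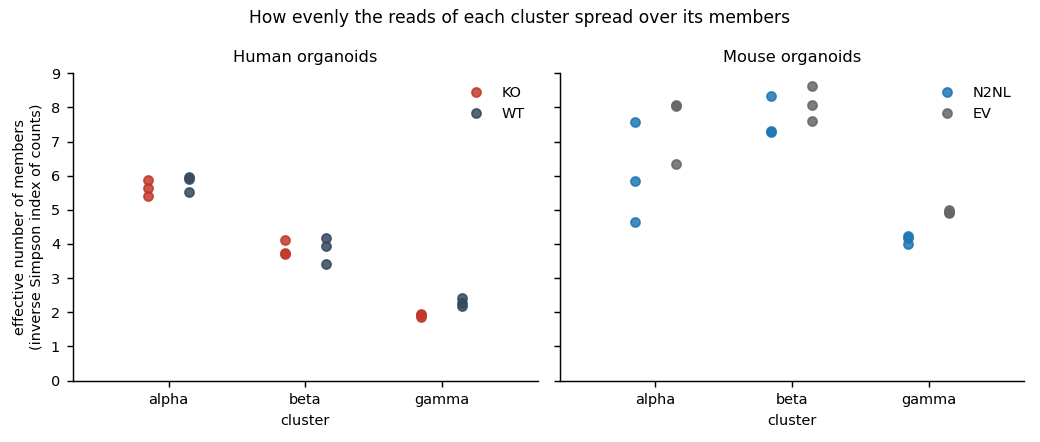
Effective number of members (inverse Simpson index of the counts) of each cluster in each library, for human (KO left of WT) and mouse (N2NL left of EV). The gamma values part by group in both species, at 1.85 to 1.95 in KO and 2.17 to 2.42 in WT, and at 3.99 to 4.25 in N2NL and 4.90 to 5.01 in EV, while the alpha and beta values overlap. The gamma values are not separate from the gamma C3 level, which was lower in KO and higher in N2NL, where it did not pass the test.

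None of the other mouse lists held a called gene (edgeR): 0 of 11 CTCF and cohesin genes, 0 of 11 methylation and silencing genes, 0 of 17 partners, 0 of 11 tested protocadherins outside the clusters and 0 of 9 tested classical cadherins. The 12 mouse neuron markers all lay below 0, with a median of −0.24 and sums of 736 to 831 CPM in N2NL and 876 to 1085 CPM in EV. Pluripotency markers summed to 520 to 577 CPM in N2NL and 475 to 521 CPM in EV. Their part in the protocadherin values was not tested.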

How the data were processed

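The authors deposited whole-number raw counts per gene, used here as they stand. Their comparison tables hold, per the file headers, normalised values (treated as a score), log2 fold changes, p-values and adjusted p-values; values taken from them are named as the authors'. Builds were GRCh38 and GRCm38, and the tools listed, with no roles, were HTSeq 0.6.1p1, STAR 2.4.0, DESeq2 2.11.39, Trimmomatic 0.36 and Bowtie2 2.3.3.1, per the submitters' processing notes. Libraries were polyA-selected and made with a strand-specific kit, per the labels' protocols; whether counting used strand is not stated there. Summary lines of the mouse table, which name no gene, were left out. Of all counts in that table, these lines included, 26.64% to 33.67% were non-unique alignments and 0.769% to 0.905% were ambiguous. Near-identical members are therefore uncertain. All deposited columns were assigned to samples.

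Each species was tested over all its genes with edgeR 4.0.16 in R 4.3.3 (filterByExpr, TMM factors, robust quasi-likelihood F test, Benjamini-Hochberg adjustment, threshold 0.05), after a test on simulated data. CPM use TMM factors, and the approximate SE is the size of the log2 fold change over the square root of F. Own exonic lengths are bases of GENCODE release 29 in no other gene of the same strand, which assumes that reads in shared exons went uncounted. That release held 57055 of the 60675 human identifiers counted, so the exons used in counting may differ from those used for lengths. Alternatives were DESeq2 1.42.0, other scalings and filters, a replicate block and leaving out each library. A precision limit is counting error: 3 counts is the most that a 0 allows.

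Named genes were those past the threshold, the C-type members, the 3 highest of each cluster and the 2 largest and 2 smallest log2 fold changes of each; in the lists, genes past the threshold and otherwise up to 3 by level. Members and lists were chosen with earlier results of these data known. The summed telencephalon list is not reported here.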

Additional observations from a re-analysis of the deposited data

How the results depend on the processing

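Of the 40 named members that were tested, 22 kept direction and side of the threshold in every fit. With no filter on low counts 5 human members and 1 mouse member were called, against 2 and 0. With 1 library left out the human count ran from 2 to 5, with 5 without WT 1, and the mouse count stayed at 0. The replicate block left 2 human and 0 mouse members called. By deviations from the group mean, the replicate 1 libraries correlated best with their own number in both species (0.216 in human and 0.143 in mouse). Replicates 2 and 3 did not (−0.113 and 0.126 in human, 0.016 and −0.005 in mouse). Whether the replicate 1 libraries share a source of spread was not tested. Over all genes the human calls were 391 higher and 541 lower, 957 and 1198 with no filter, and between 94 and 130 (without WT 3) and 661 and 779 (without WT 1) with 1 library left out. In mouse they were 2 and 0, 25 and 5 by DESeq2, 79 and 38 with no filter, and 8 and 13 under the replicate block. Per kb of whole exonic length, PCDHA6 stood at 1.46 (2.75 by own length) and PCDHGB6 at 20.7 (30.5) CPM per kb. Near 0, log2 fold changes turned sign when 1 library was left out: PCDHAC1 (−0.421 to 0.0759), PCDHA4 (−0.0585 to 0.0706), PCDHA6 (−0.129 to 0.0368), PCDHA12 (−0.422 to 0.0652), PCDHA10 (−0.0986 to 0.546) and PCDHGB6 (−0.0602 to 0.0482) in human; gamma C5 (−0.247 to 0.0334), alpha 11 ENSMUSG00000007440 (−0.14 to 0.24), alpha 12 (−0.33 to 0.56), beta 22 (−0.104 to 0.0634), beta 20 (−0.259 to 0.0160), beta 6 (−0.0920 to 0.344) and gamma A7 (−0.0762 to 0.190) in mouse. The cause was not tested. Depth limits the 17 human and 12 mouse members that had too few counts to test.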

Other observations

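Among the human pseudogenes left out of the members, PCDHB18P, which lies between PCDHB14 and PCDHB15, had 13, 17 and 12 counts in KO, against 30, 23 and 21 in WT, with a log2 fold change of −0.83 ± 0.35 (adjusted p = 0.188). A lincRNA of the beta cluster, AC244517.1, had 67, 67 and 62 counts in KO, against 94, 104 and 72 in WT, without overlap and without passing the test (−0.47 ± 0.21, adjusted p = 0.213). An antisense transcript over the start of the alpha cluster, AC005609.5, had 21, 34 and 21 counts in KO, against 19, 29 and 28 in WT, which overlapped.

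Libraries of the groups also did not overlap for 4 of the 15 human members that had counts but stood below the filter. These were PCDHB1, PCDHGA3, PCDHA13 and PCDHGB3, or 26.7%, beside 7.71% of all 15963 such genes. The 15963 take in every gene with any count, also those with counts in too few libraries for the groups to part. The shares are therefore not of like genes. Among tested genes the share was 28.8%. The counts are low and the difference in share was not tested. These members are given as counts only and were named after their values were seen. PCDHB1, the first gene of the beta cluster, had 5, 8 and 6 counts in KO, against 1, 2 and 1 in WT. PCDHGA3 had 11, 10 and 10 counts in KO, against 3, 5 and 2 in WT. PCDHA13 had 3 counts in each KO library, against 1, 2 and 2 in WT. PCDHGB3 had 5, 4 and 5 counts in KO, against 21, 8 and 7 in WT.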
